A study of Mus musculus with 24 samples.

Results

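The proprotein convertase family was followed through 6 genes, Furin, Pcsk1, Pcsk2, Pcsk5, Pcsk6 and Pcsk7, out of 25755 genes measured in dermal papilla (DP) cells, the mesenchymal signalling centre at the base of the hair follicle. The members were taken by gene name, and the family was chosen on a measured value, the fall of Pcsk6 transcripts at postnatal day 20 (P20) in cells lacking the histone deacetylases Hdac1 and Hdac2. RNA sequencing covered 24 libraries, 3 for each of 2 genotypes at 4 ages. The ages were P20 (the first telogen, the resting phase of the hair cycle), P24 (early anagen, the growth phase), P28 (mid anagen) and P60 (the second telogen).

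Every mouse carried Corin-Cre, which recombines floxed alleles where the DP gene Corin is active, and a ROSA26 EYFP reporter by which the DP cells were sorted in 2 rounds. The double mutants (dM1/2) were Hdac1 Flox/Flox; Hdac2 Flox/Flox. The controls also carried Corin-Cre together with floxed alleles of Hdac1, Hdac2 or both, in mixed genotypes that included homozygotes for either gene alone, and the labels do not give the genotype of each control library. P20 mice were female, P24 and P28 mice were male, and P60 mice were of either sex, so age and sex cannot be told apart in a comparison of telogen with anagen. The libraries are labelled as biological replicates, and the study describes each back skin as dissociated and sorted on its own, from 3 mice per genotype and age.

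Proprotein convertases are serine proteases of the secretory pathway that cut precursor proteins after pairs or clusters of basic residues and so release or activate growth factors, receptors, matrix proteins and other proteases. Furin, Pcsk5 (PC5/6), Pcsk6 (PACE4) and Pcsk7 (PC7) act in the constitutive secretory route or at the cell surface. Pcsk1 (PC1/3) and Pcsk2 (PC2) act in the regulated route of neuroendocrine cells. Skin precursors of this kind include BMP and TGF-beta ligands, Notch receptors, membrane-type metalloproteinases and Corin itself. The values below are transcript levels, and no precursor cleavage was measured.

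Expression is given as normalized reads, the reads of a gene divided by the size factor of its library. Reads assigned to genes ran from 11635062 to 13369732 per library at P20, 35469841 to 49331751 at P24, 37171260 to 48331795 at P28 and 8171944 to 9724000 at P60, so low genes were measured least precisely in telogen. All 14 DP markers were detected in every group, but their summed level was far lower in telogen, at 35270 to 41071 normalized reads in P20 controls and 29302 to 39487 in P60 controls against 325881 to 397712 in P24 controls. The 4 muscle markers moved the other way, at 3460 to 5225 in P20 controls, 4576 to 4989 in P60 controls and 647 to 2033 in P24 controls. In sorted bulk cells, fewer cells of a type and lower transcript levels per cell cannot be told apart. The paper uses Corin, which is among these 14 DP markers, as a specific label of anagen DP cells. The part of DP purity in the lower telogen sums was not tested.

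The targeted gene Hdac1 gave 375 to 511 normalized reads in P20 controls and 216 to 370 in P20 dM1/2, with no overlap. It was lower in dM1/2 at P24, at 171 ± 48.7 (SD, n = 3) against 670 ± 3.69 normalized reads. At P28 the controls read 214, 529 and 105 in libraries 1, 2 and 3 against 126 to 190 in dM1/2, so the library labelled P28 control 3 lay below all the mutant libraries and the P28 genotype effects are also given without it. Hdac1 levels overlapped at P60 as well, at 360 to 506 in controls and 318 to 371 in dM1/2. Hdac2, counted over the whole gene and not the floxed exons alone, overlapped between genotypes at P20, P28 and P60 and was higher in dM1/2 at P24 (1157 to 1282 against 925 to 1069).

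The bases upstream of a RefSeq transcription start are shown for Pcsk6 and the 3 members that passed a genotype test at P24 or P28, so that their CpG-rich starts can be compared. Capitals mark the GC box GGGCGG on either strand, counted with overlaps. The sequences are the 250 bases before each RefSeq start (GRCm38.p6), written 5′ to 3′ on the strand of the gene.
Pcsk6, chr7:65861886-65862135, plus strand: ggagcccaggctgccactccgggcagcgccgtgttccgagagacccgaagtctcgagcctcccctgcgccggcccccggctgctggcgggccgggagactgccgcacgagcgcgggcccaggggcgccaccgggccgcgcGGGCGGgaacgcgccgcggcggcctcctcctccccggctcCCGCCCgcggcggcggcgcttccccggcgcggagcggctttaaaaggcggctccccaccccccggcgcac
Pcsk5, chr19:17837633-17837882, minus strand: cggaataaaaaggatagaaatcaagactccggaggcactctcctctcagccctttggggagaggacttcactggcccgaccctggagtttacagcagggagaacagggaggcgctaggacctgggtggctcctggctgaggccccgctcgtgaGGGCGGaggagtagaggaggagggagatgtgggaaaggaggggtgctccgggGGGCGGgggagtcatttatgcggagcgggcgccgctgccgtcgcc
Furin, chr7:80402813-80403062, minus strand: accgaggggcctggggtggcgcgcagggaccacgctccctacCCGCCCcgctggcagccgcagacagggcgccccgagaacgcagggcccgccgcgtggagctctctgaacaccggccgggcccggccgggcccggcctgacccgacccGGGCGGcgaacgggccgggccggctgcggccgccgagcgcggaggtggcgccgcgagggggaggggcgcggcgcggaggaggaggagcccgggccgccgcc
Pcsk2, chr2:143545883-143546132, plus strand: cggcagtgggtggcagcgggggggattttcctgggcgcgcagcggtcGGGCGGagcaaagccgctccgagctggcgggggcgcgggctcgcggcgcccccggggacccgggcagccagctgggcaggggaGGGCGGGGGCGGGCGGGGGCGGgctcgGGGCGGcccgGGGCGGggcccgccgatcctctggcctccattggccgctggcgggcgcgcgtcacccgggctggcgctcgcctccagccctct
The Pcsk6 window held 40 CpG dinucleotides and was 81.2% G or C, against a median of 6 CpGs and 52.4% over 32851 mouse promoters of the same length. The Furin window also held 40 CpGs, the Pcsk2 window 35 and the Pcsk5 window 15. GC boxes numbered 2 in Pcsk6, Pcsk5 and Furin and 7 in Pcsk2, where 1 neighbouring pair overlaps, and 32.7% of all promoters held at least 1. The TCF/LEF core (CTTTGA or CTTTGT, either strand, present in 27.6% of all promoters) and the E-box CACGTG (6.02%) were in none of these 4 windows. The Pcsk7 window held 36 CpGs, 3 GC boxes and no TCF/LEF core, and the Pcsk1 window held 8 CpGs, no GC box and 1 TCF/LEF core. Furin has another RefSeq start further upstream, with 6 CpGs and no GC box in its window at chr7:80405437-80405686. By the gene coordinates given below, the Pcsk6 window and the Furin window shown lie inside the annotated gene. The Pcsk7 and Pcsk1 windows cross the annotated start of their gene.

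Pcsk6 (ENSMUSG00000030513, chr7:65861734-66050386, plus strand, GRCm38) encodes PACE4, which binds heparan sulfate in the extracellular matrix and processes TGF-beta family precursors. At P20 the 3 control libraries gave 1602, 3030 and 1253 normalized reads, and the 3 dM1/2 libraries gave 173, 332 and 233. All mutant values lay below all control values. The means were 1962 ± 941 and 246 ± 80.4 (SD, n = 3), a level 7.98-fold lower in dM1/2 and a log2 difference of -2.94. Because Pcsk6 was chosen on this contrast, the difference is a description without a test, and it ran from -3.21 to -2.57 when any 1 library was left out. Gm45213, a gene model that shares 156 exon bases with Pcsk6 on the same strand, was at 0 in all libraries. The next falls by the same values were Pcdhgb8 at -1.27, Fam180a at -1.14 and Qpct at -0.98 on the log2 scale. They were ranked among genes with a name (no gene models) that passed limma in this contrast with no overlap between groups. This ranking restates how Pcsk6 was chosen and is no evidence for its fall.

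DP marker sums at P20 also differed between genotypes, at 35270 to 41071 in controls and 48290 to 67020 in dM1/2, and the share of reads from the collagen gene Col1a1 was 19.4% to 21.4% in controls and 13.1% to 15.9% in dM1/2. Schwann cell marker sums were 198 to 254 in controls and 157 to 179 in dM1/2, with no overlap, and Sox10, the defining marker, was at or near 0 in both. Muscle marker sums overlapped, at 3460 to 5225 in controls and 2813 to 4734 in dM1/2. The part of cell composition in the Pcsk6 difference was not tested.

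**Figure D1:**
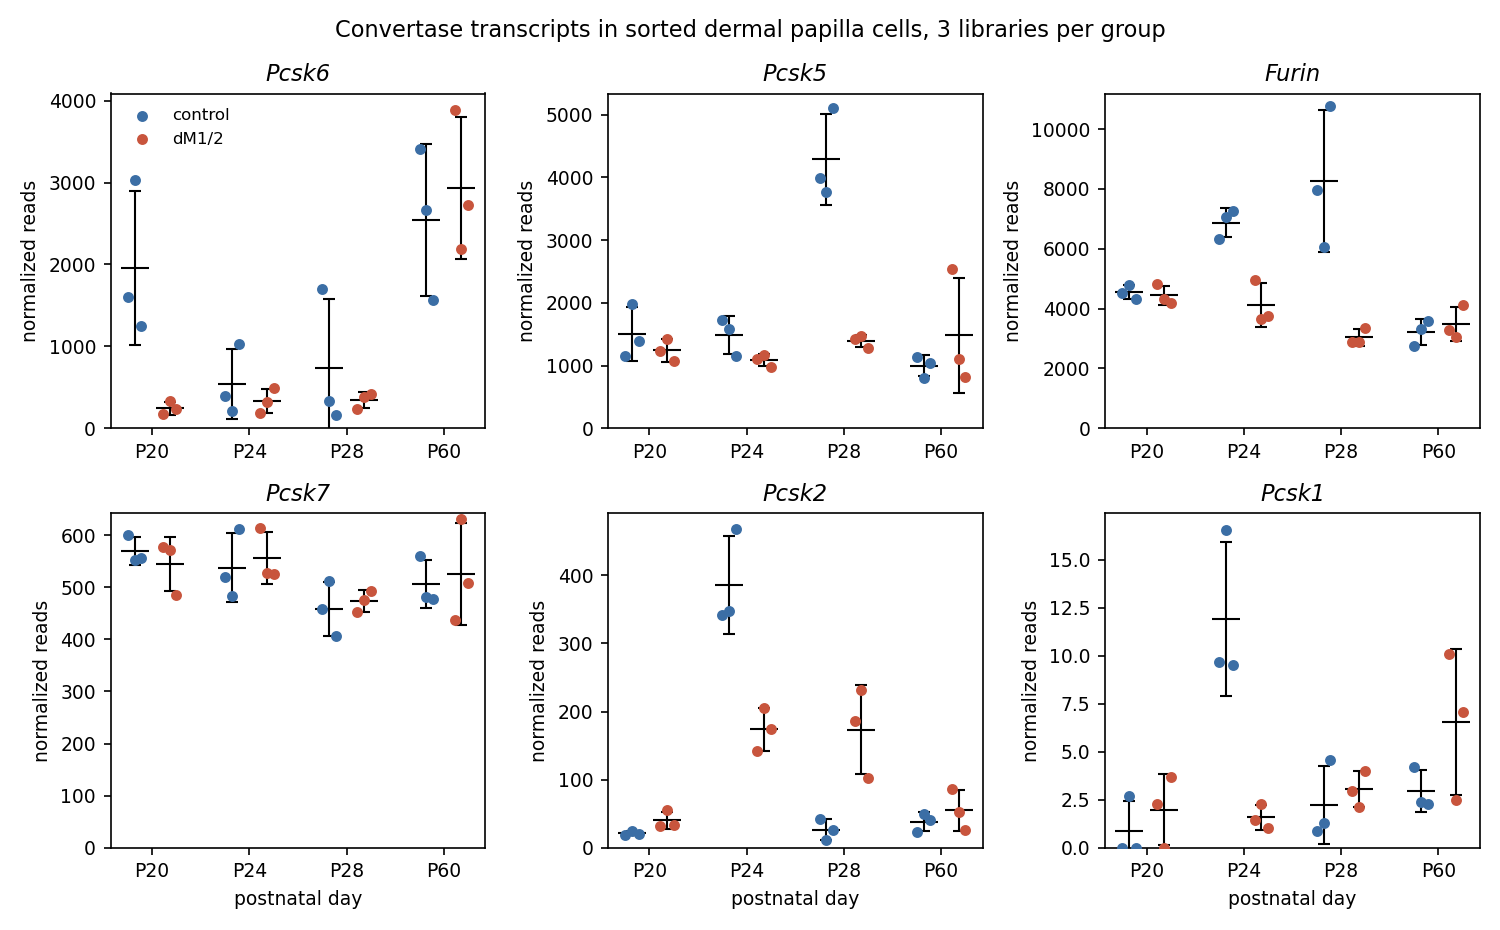
Normalized reads (vertical axes, each from 0) of the 6 convertase genes at 4 postnatal days (horizontal axes) in control and dM1/2 DP cells. Points are libraries, horizontal marks are means and bars are 1 SD (n = 3, cut at 0). Pcsk6 differed most between genotypes at P20, whereas Furin was separated at P24 and P28 and Pcsk5 at P28. Pcsk2 lay lower in dM1/2 at P24 and higher at P28.

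After P20 no genotype difference in Pcsk6 passed the test. At P24 the controls gave 390, 213 and 1027 normalized reads and dM1/2 gave 192, 318 and 491. The ranges overlapped, and the log2 fold change was -0.50 (SE 0.57, limma adjusted p = 0.558). At P28 the controls gave 1702, 333 and 158, a 10.8-fold range, against 238, 386 and 416 in dM1/2, with a log2 fold change of -0.41 (SE 0.80, limma adjusted p = 0.729). Single control libraries decided these values: the log2 fold change was 0.11 at P24 without P24 control 3 and 0.55 at P28 without P28 control 1, and was -1.16 at P28 without the library labelled P28 control 3.

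At P60 Pcsk6 was high in both genotypes. The controls gave 3411, 2660 and 1565 normalized reads and dM1/2 gave 3888, 2187 and 2730, and these ranges overlapped. The log2 fold change was 0.24 with a 95% interval half-width of 0.73 (limma adjusted p = 0.986). The change between P20 and P60 was not tested because P20 was used for the choice.

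Over the 8 groups the order of mean Pcsk6 levels was P60 dM1/2, P60 control, P20 control, P28 control, P24 control, P28 dM1/2, P24 dM1/2 and P20 dM1/2, and every neighbouring pair in that order overlapped. In controls the level at P60 was 2545 ± 928 against 731 ± 846 at P28 (SD, n = 3), and the log2 fold change of 2.43 (SE 0.83) missed the threshold (limma adjusted p = 0.0761). The labels pair no P60 library with a P28 library. Same-numbered control libraries of these ages correlated at only 0.128, 0.119 and 0.165, though every library was most like its own number. With the replicate number as a block the change passed (limma adjusted p = 0.0332). It also passed in the single fit over all 24 libraries (limma adjusted p = 0.00715) and without P28 control 1, where the log2 fold change was 3.39 (limma adjusted p = 0.0246). Without the library labelled P28 control 3 it was 1.68 (limma adjusted p = 0.108). From P24 to P28 the control level differed by 0.02 on the log2 scale (SE 0.95, limma adjusted p = 0.993).

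Within anagen, Pcsk6 was highest in P28 control 1 and P24 control 3, and neither had high muscle markers. P28 control 1 had a DP marker sum of 287402, a muscle marker sum of 793 and an endothelial marker sum of 1552 normalized reads. P24 control 3 had sums of 397712, 647 and 378. The part of other cells in these Pcsk6 levels was not tested.

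**Figure D2:**
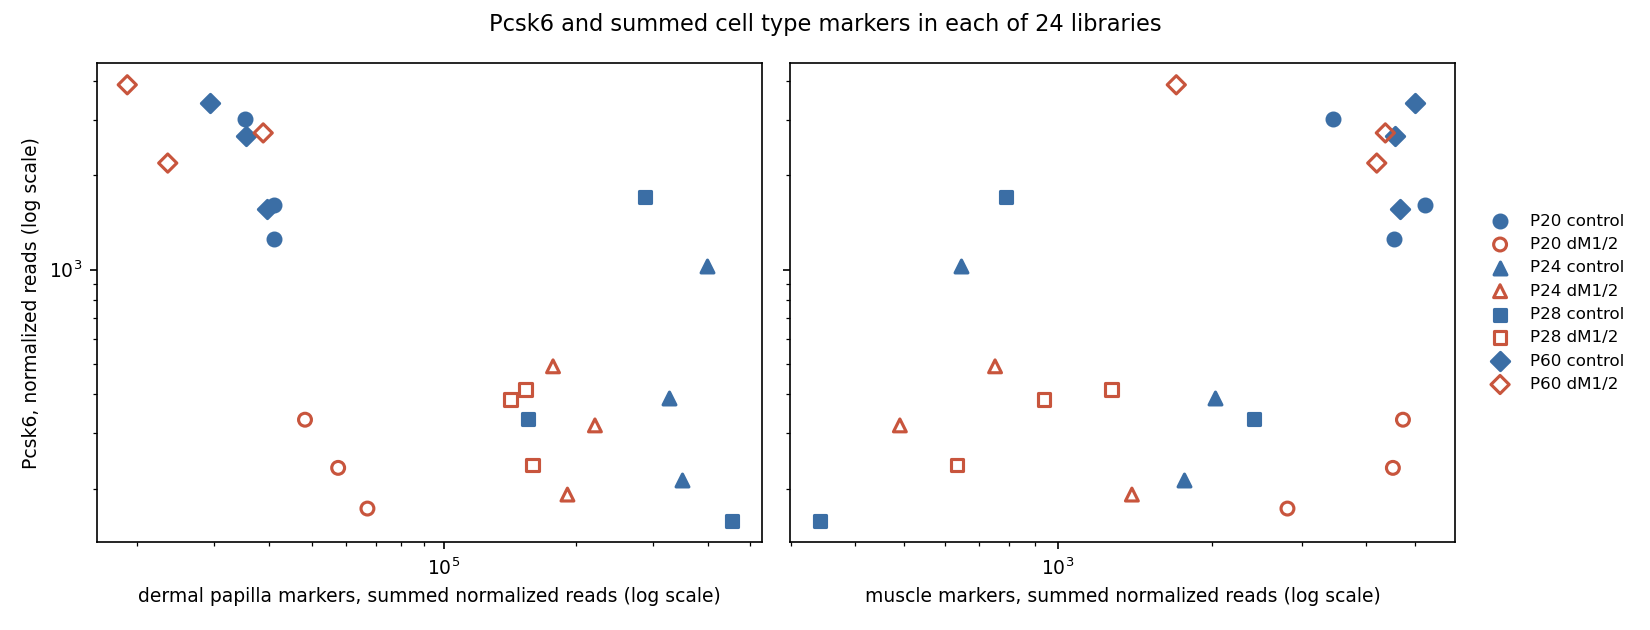
Pcsk6 normalized reads (vertical log axis) against the summed normalized reads of 14 DP markers (left, horizontal log axis) and 4 muscle markers (right, horizontal log axis), 1 point per library. Filled points are controls and open points dM1/2. The P60 libraries and P20 controls combine high Pcsk6 with low DP marker sums, while the P20 dM1/2 libraries have low Pcsk6 at DP sums of 48290 to 67020 and muscle sums in the range of the other telogen libraries.

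Genes with a pattern most like that of Pcsk6 over the 24 libraries, by Pearson correlation of log2 values among 14242 genes, included Gm29340 (0.829), Fmnl1 (0.808), Gstm1 (0.807) and Lhx8 (0.805). Gstm1 encodes a glutathione S-transferase. Its mean normalized reads were 1707 in P20 controls, 1092 in P20 dM1/2, 2959 in P60 controls and 3738 in P60 dM1/2, so its P20 means lay closer together than those of Pcsk6. The libraries share age, sex and depth, and these coefficients are descriptions.

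Of the 6 members, 5 reached a mean of 10 normalized reads and entered the fits, and Pcsk1 did not. At P24 the test was passed by 2 of these 5, Furin and Pcsk2, both lower in dM1/2, where 26.6% of 14028 genes passed, 14.8% higher and 11.8% lower. At P28 it was passed by 3 of 5, with Furin and Pcsk5 lower and Pcsk2 higher, where 35.5% of 14126 genes passed, 20% higher and 15.6% lower. At P60, where Hdac1 itself overlapped between genotypes, it was passed by 0 of 5 and by 0% of 14042 genes in limma. The P60 comparison had 525 genes at an unadjusted p under 0.05, and DESeq2 called 26 genes and no member there.

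Furin (ENSMUSG00000030530, chr7:80388585-80405436, minus strand) encodes the broadly expressed convertase of the trans-Golgi network. At P28 the controls gave 7967, 6044 and 10789 normalized reads and dM1/2 gave 2885, 2868 and 3355. All dM1/2 values were below all control values. The means were 8267 ± 2387 and 3036 ± 276 (SD, n = 3), a log2 fold change of -1.41 (SE 0.22, limma adjusted p = 0.00385), and of -1.20 without the library labelled P28 control 3 (limma adjusted p = 0.00147).

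At P24 Furin gave 6326, 7051 and 7257 normalized reads in controls and 4963, 3666 and 3743 in dM1/2, again with no overlap. It fell by 0.75 on the log2 scale (SE 0.16, limma adjusted p = 0.0123), a call lost without P24 control 2 (limma adjusted p = 0.0502). At P60 the ranges were 2758 to 3585 in controls and 3050 to 4128 in dM1/2, which overlapped, and the log2 fold change was 0.11 (half-width 0.40, limma adjusted p = 0.987). At P20 the levels were 4337 to 4794 in controls and 4185 to 4809 in dM1/2, a log2 difference of -0.04 given without a test.

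Pcsk5 (ENSMUSG00000024713, chr19:17432319-17837632, minus strand) encodes PC5/6, which processes growth and differentiation factors, integrin chains and proteoglycans. The P28 control libraries gave 3993, 3760 and 5110 normalized reads and the dM1/2 libraries gave 1420, 1469 and 1281. The control libraries at P28 stood above all other groups, with no overlap with the next group in order. The means were 4288 ± 722 and 1390 ± 97.9 (SD, n = 3), a log2 fold change of -1.61 (SE 0.15, limma adjusted p = 0.000658), and of -1.48 without the library labelled P28 control 3 (limma adjusted p = 0.000213).

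At P24 Pcsk5 gave 1733, 1577 and 1152 normalized reads in controls and 1107, 1175 and 981 in dM1/2, with a log2 fold change of -0.43 (SE 0.17, limma adjusted p = 0.10). The ranges overlapped only through P24 control 3, and without it the log2 fold change was -0.61 (limma adjusted p = 0.0150). At P60 the controls gave 808 to 1136 and dM1/2 gave 2532, 1101 and 821. The log2 fold change was 0.42 (half-width 0.88, limma adjusted p = 0.986) and was -0.05 without P60 dM1/2 1, the library with an endothelial marker sum of 6059 against 1196 to 2979 in the other P60 libraries. At P20 the levels were 1149 to 1983 in controls and 1071 to 1427 in dM1/2, a log2 difference of -0.25 with no test.

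Pcsk2 (ENSMUSG00000027419, chr2:143546156-143816285, plus strand) encodes PC2, a convertase of dense-core granules in neuroendocrine cells. At P24 the controls gave 341, 348 and 468 normalized reads and dM1/2 gave 142, 206 and 175. It fell by 1.14 on the log2 scale (SE 0.20, limma adjusted p = 0.00626), with no overlap between the genotypes, and missed the threshold in a single fit over all 24 libraries (limma adjusted p = 0.0641). At P28 the controls gave 42.6, 11.5 and 25.8 and dM1/2 gave 185, 231 and 103.

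Pcsk2 was thus lower in dM1/2 at P24 and higher at P28. The P28 means were 26.6 ± 15.6 and 173 ± 65.2 (SD, n = 3), 6.50-fold higher in dM1/2, with a log2 fold change of 2.75 (SE 0.52, limma adjusted p = 0.00724), and of 2.82 without the library labelled P28 control 3 (limma adjusted p = 0.00568). The dM1/2 means were 174 ± 31.8 at P24 and 173 ± 65.2 at P28, while the control means were 386 ± 71.6 and 26.6 ± 15.6. At P60 the ranges were 23.1 to 50.05 in controls and 25.9 to 85.8 in dM1/2 (log2 fold change 0.42, half-width 1.18, limma adjusted p = 0.986). At P20 the controls gave 18.7 to 24.3 and dM1/2 gave 31.8 to 55.3, from 7 to 25 reads per library, with no test. The annotated antisense transcripts Pcsk2os1 and Pcsk2os2 share 260 and 99 exon bases with Pcsk2, and the strand setting of the counting is not given in the sources used here.

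Pcsk7 (ENSMUSG00000035382, chr9:45906497-45929726, plus strand) encodes PC7, a membrane-bound convertase. It was the steadiest member by range, at 407 to 631 normalized reads over the 24 libraries. The log2 fold changes were 0.05 at P24, 0.05 at P28 and 0.04 at P60, with half-widths of 0.32, 0.31 and 0.42 (limma adjusted p = 0.820, 0.792 and 0.998). It shares 415 exon bases with Rnf214 and 108 with Tagln on the opposite strand.

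Pcsk1 (ENSMUSG00000021587, chr13:75089826-75134861, plus strand) encodes PC1/3, the other neuroendocrine convertase, and was near the detection floor. Its highest group mean was in P24 controls, with libraries at 9.67, 16.6 and 9.53 normalized reads from 25, 33 and 24 reads. The P24 dM1/2 libraries held 4, 6 and 3 reads, or 1.45, 2.29 and 1.01 normalized reads, below all control values. With no filter on low values the log2 fold change at P24 was -2.31 (SE 0.44, limma adjusted p = 0.0101). Elsewhere 0 to 12 reads were counted per library. P60 dM1/2 1, at 10.1 normalized reads from 4 reads, lay within the range of the P24 controls.

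**Figure D3:**
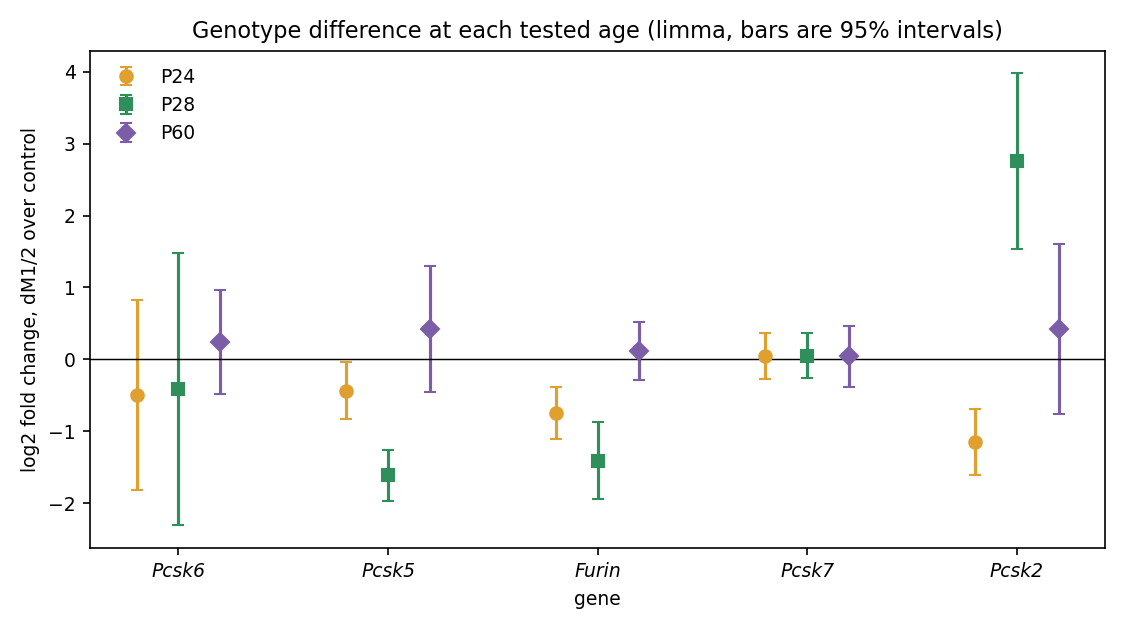
Log2 fold change of dM1/2 over control (vertical axis) for the 5 members tested (horizontal axis) at P24, P28 and P60. Points are limma estimates on log2(normalized reads + 1) and bars are 95% intervals. The intervals of Furin and Pcsk5 lie below 0 at P24 and P28, though Pcsk5 did not pass the test at P24. Pcsk2 lies below 0 at P24 and above 0 at P28, and the P60 intervals of all 5 members include 0.

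The question whether the genotype difference itself changed with age was tested as the difference between log2 fold changes. Between P28 and P24 it passed for 2 of 5 members and 0.707% of 14139 genes. The Pcsk2 effect was 3.90 higher at P28 than at P24 on the log2 scale (SE 0.59, limma adjusted p = 0.0298) and the Pcsk5 effect was lower, with a difference of -1.18 (SE 0.23, limma adjusted p = 0.0499). The Pcsk5 call was lost in 11 of 12 fits that left out 1 library, with adjusted p up to 0.144, and the Pcsk2 call in 7 of 12, with adjusted p up to 0.106. Without the library labelled P28 control 3, limma adjusted p was 0.0280 for Pcsk2 and 0.0604 for Pcsk5. The Pcsk5 call was also lost with no filter (limma adjusted p = 0.0559) and in the single fit (limma adjusted p = 0.271).

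Between P28 and P60 the difference passed for 2 of 5 members and 18.2% of 14322 genes. It was -2.03 for Pcsk5 (SE 0.46, limma adjusted p = 0.0134) and -1.52 for Furin (SE 0.29, limma adjusted p = 0.00664), both calls kept without the library labelled P28 control 3 (limma adjusted p = 0.0207 and 0.00742). For Pcsk2 it was 2.33 (SE 0.78, limma adjusted p = 0.0585), and it passed with DESeq2 (adjusted p = 0.0284) and in the single fit (limma adjusted p = 0.00989). For Pcsk6 neither difference passed, at 0.09 (SE 1.10, limma adjusted p = 0.991) and -0.65 (SE 0.95, limma adjusted p = 0.688). Hdac1 itself overlapped between genotypes at P28 and at P60, and the part of this in the differences was not tested.

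Some of the convertases also differed between ages in controls. From P24 to P28, 2 of 5 members passed, where 1.46% of 13966 genes did. Pcsk5 rose by 1.53 on the log2 scale (SE 0.20, limma adjusted p = 0.0309), 2.88-fold by the means, and Pcsk2 was 14.5-fold lower (log2 fold change -3.97, SE 0.46, limma adjusted p = 0.0302). The Pcsk5 call was lost in each of 6 fits that left out 1 library (limma adjusted p up to 0.107), and the Pcsk2 call in 3 of 6, those without a P24 control (limma adjusted p up to 0.110). Furin differed by 0.23 (SE 0.23, limma adjusted p = 0.660). Without the library labelled P28 control 3 these log2 fold changes were 1.40 for Pcsk5, -4.03 for Pcsk2 and 0.02 for Furin (limma adjusted p = 0.0559, 0.0488 and 0.970).

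In dM1/2 from P24 to P28, 0 of 5 members passed, where 2.67% of 14032 genes did. Pcsk5 differed by 0.36 (half-width 0.27, limma adjusted p = 0.169), Pcsk2 by -0.07 (half-width 0.66, limma adjusted p = 0.942) and Furin by -0.43 (half-width 0.34, limma adjusted p = 0.188) on the log2 scale. From P28 to P60 in controls, 2 of 5 members passed, where 21.4% of 14073 genes did. Age, sex and depth cannot be told apart in this comparison. Pcsk5 was lower at P60 by a log2 fold change of -2.11 (SE 0.18, limma adjusted p = 0.00202) and Furin by -1.33 (SE 0.23, limma adjusted p = 0.0153). The Furin call was lost without P28 control 1, P60 control 2 or P60 control 3 (limma adjusted p of 0.0650, 0.0646 and 0.0512). Both calls remained without the library labelled P28 control 3, at -1.97 for Pcsk5 and -1.12 for Furin (limma adjusted p = 0.00114 and 0.00994).

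To compare the members with each other, levels were divided by exon length. Furin was the highest member per kb of exon in P20, P24 and P28 groups of both genotypes, at 496 ± 25.0 in P20 controls, 749 ± 53.3 in P24 controls and 901 ± 260 in P28 controls (normalized reads per kb, SD, n = 3). At P60 the mean of Pcsk6 was higher, at 490 ± 179 per kb against 351 ± 46.0 for Furin in controls and 566 ± 167 against 380 ± 61.6 in dM1/2. The SDs of these P60 levels are wide. In P20 controls Pcsk6 stood next to Furin at 378 ± 181 per kb, and in P20 dM1/2 it was at 47.4 ± 15.5, below Pcsk7 at 105 ± 9.98 and Pcsk5 at 85.9 ± 12.4. Pcsk1 stayed at 0.161 to 2.13 per kb in all groups.

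**Figure D4:**
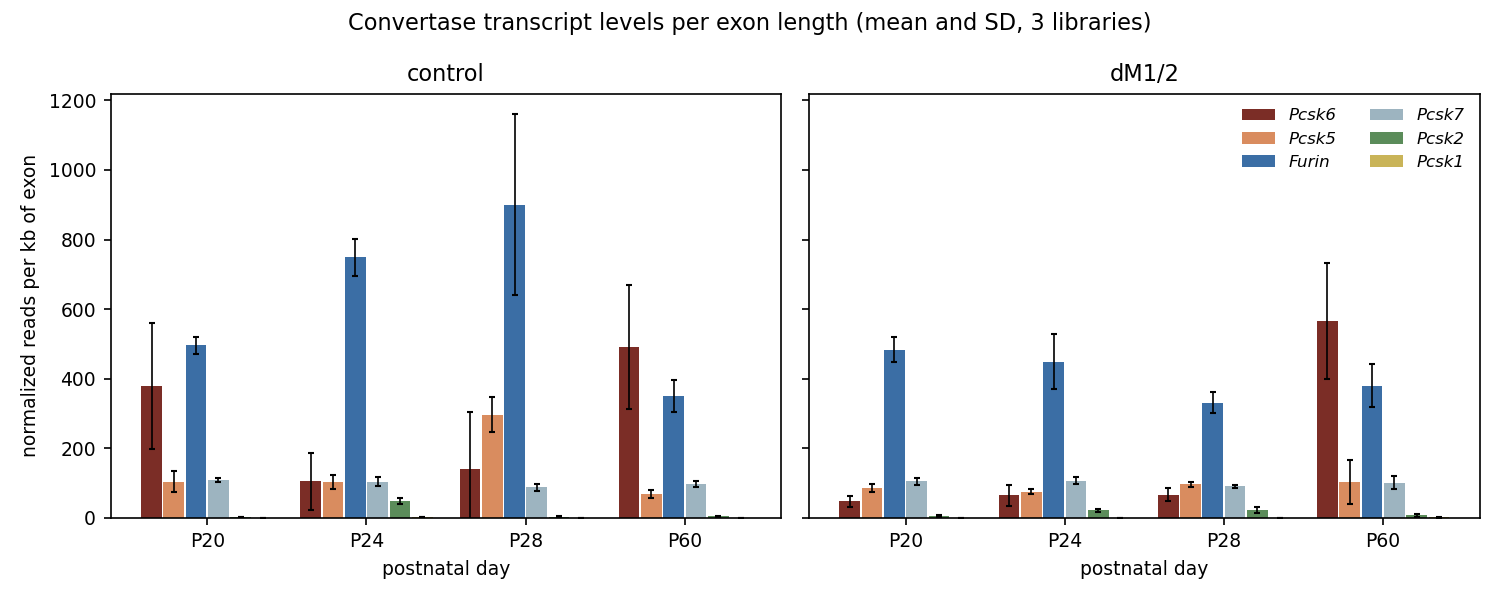
Mean normalized reads per kb of exon (vertical axis, from 0) for the 6 members at 4 postnatal days (horizontal axis) in control (left) and dM1/2 (right) DP cells, with 1 SD bars (n = 3). Furin is the tallest bar from P20 to P28 in both genotypes, and the Pcsk6 bar is near 378 in P20 controls and 47.4 in P20 dM1/2.

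Among the tested members, Pearson correlations of log2 levels over the 24 libraries ran from -0.50 for Pcsk5 with Pcsk7 to 0.62 for Furin with Pcsk5. Those of Pcsk6 with the others ran from -0.33 to 0.12. The points share age, sex and depth.

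A list of 11 convertase relatives, inhibitors, chaperones and enzymes that finish convertase products was read beside the family. At P24, 1 of 10 tested was higher in dM1/2 and 3 were lower, with a median log2 fold change of -0.23 against -0.01 over all genes. Of all genes tested 14.8% were higher and 11.8% lower at P24. Mbtps1, the site-1 protease that activates SREBP factors, fell by 0.47 (SE 0.13, limma adjusted p = 0.0362), and Pam, which amidates peptide hormones, fell by 0.79 (SE 0.22, limma adjusted p = 0.0342). Pcsk1n, a granule protein that inhibits PC1/3, fell by 1.09 (SE 0.25, limma adjusted p = 0.0183), whereas Cpd, a Golgi carboxypeptidase that trims basic residues, rose by 0.47 (SE 0.14, limma adjusted p = 0.0460).

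At P28, 0 of 11 on that list were higher and 2 were lower, with a median of -0.12 against 0.00 over all genes, of which 20% were higher and 15.6% lower. Mbtps1 fell by 0.67 (SE 0.14, limma adjusted p = 0.00948), and Cpe, the carboxypeptidase of the regulated route, fell by 1.0 (SE 0.18, limma adjusted p = 0.00600). Scg5, the chaperone of PC2, was at 17.2 ± 6.72 in controls and 5.71 ± 1.33 in dM1/2 (SD, n = 3) and missed the threshold at a log2 fold change of -1.39 (limma adjusted p = 0.0560). Without the library labelled P28 control 3, Mbtps1 and Cpe kept their calls, Pam also passed at a log2 fold change of -1.38 (limma adjusted p = 0.00991), and the list median was -0.37. At P60, 0 of 8 tested passed, with a median of 0.10 against 0.02.

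**Figure D5:**
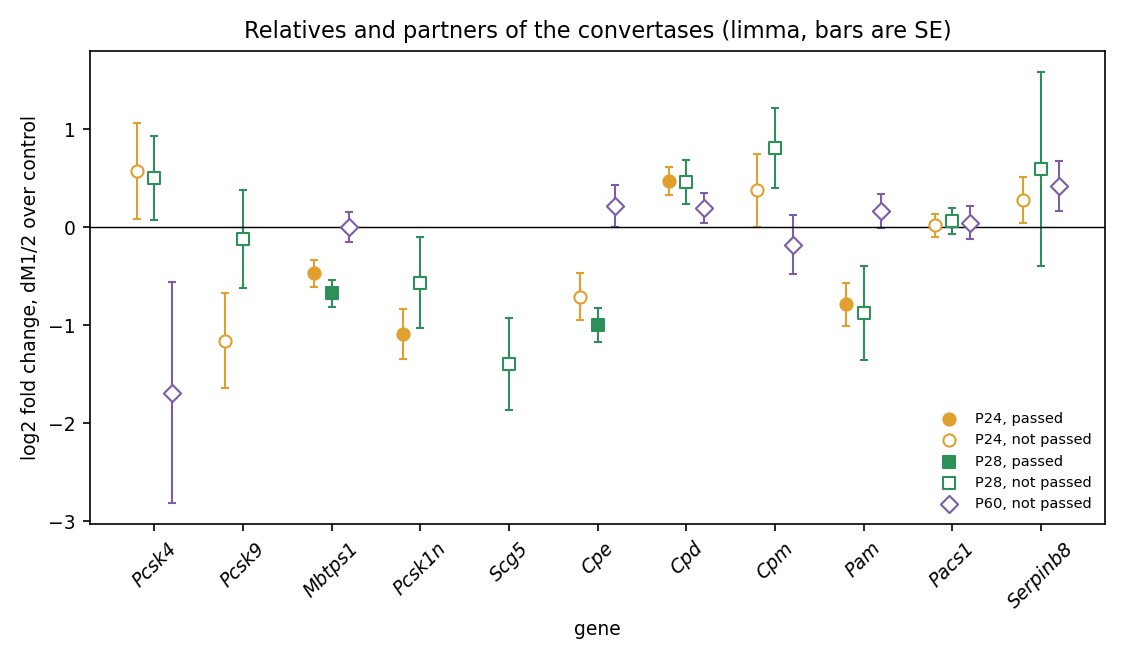
Log2 fold change of dM1/2 over control (vertical axis) for convertase relatives and partners (horizontal axis) at P24, P28 and P60, with SE bars. Filled points passed limma at an adjusted p under 0.05. Mbtps1 passed at P24 and P28, Cpe at P28, and Pcsk1n, Pam and Cpd at P24.

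Precursors that convertases are known to cut were grouped by role, as a view of what the cells transcribed and not of processing. The median log2 fold changes at P28 were 0.60 for TGF-beta family ligands, 0.29 for other growth factors and hormones, -0.33 for receptors, -0.20 for proteases and -0.22 for adhesion and matrix proteins, against 0.00 over all genes. These medians depended on the library labelled P28 control 3, and without it were -0.16, -0.88, -0.25, -0.45 and -0.28 in the same order, so that the first 2 changed sign. The counts that follow stand beside 26.6% of all genes called at P24 (14.8% higher, 11.8% lower) and 35.5% at P28 (20% higher, 15.6% lower). Of 11 TGF-beta family ligands tested, 5 were higher and 1 lower in dM1/2 at P24, and 5 were higher and 4 lower at P28. At P28 Bmp6 was at 4050 ± 3268 in controls and 552 ± 283 in dM1/2, with a log2 fold change of -2.66 (limma adjusted p = 0.0163). Bmp7 had 2.01 (limma adjusted p = 0.000330), Bmp2 1.74 (limma adjusted p = 0.00186) and Tgfb1 1.29 (limma adjusted p = 0.00145) on the same scale.

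Of 11 other growth factors and hormones tested, 3 were higher and 1 lower at P24, and 3 were higher and 2 lower at P28. Igf2, the fetal insulin-like growth factor, was at 883 ± 479 normalized reads in P28 controls and 19397 ± 4956 in dM1/2, a log2 fold change of 4.55 (limma adjusted p = 0.000436). The neurotrophin gene Bdnf rose by 2.47 (limma adjusted p = 0.000836) and Pthlh by 2.94 (limma adjusted p = 0.00878), while the lymphatic growth factor gene Vegfc fell by 1.40 (limma adjusted p = 0.0414).

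Of 9 receptors, 1 was higher and 2 lower at P24, and 2 were higher and 3 lower at P28. The endocytic receptor Lrp1 fell by 1.79 (limma adjusted p = 0.00568) and Sorl1 by 1.78 (limma adjusted p = 0.00421). Notch1 and Notch2 moved apart, at 1.26 (limma adjusted p = 0.00368) and -1.09 (limma adjusted p = 0.00147) at P28.

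Of 17 proteases made as zymogens, 3 were higher and 3 lower at P24, and 4 were higher and 3 lower at P28. Corin, whose promoter drives the Cre, was at 48898 ± 23455 normalized reads in P28 controls and 4532 ± 500.1 in dM1/2, a log2 fold change of -3.33 (limma adjusted p = 0.000836). The membrane-type metalloproteinase genes Mmp24, Mmp17 and Mmp15 rose by 4.28, 2.10 and 1.21 (limma adjusted p = 0.000967, 0.00141 and 0.00412). Mmp24 was low, at 4.82 ± 2.52 in controls and 105 ± 24.8 in dM1/2.

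Of 9 adhesion and matrix precursors tested, 1 was higher and 2 lower at P24, and 1 was higher and 4 lower at P28. Fibrillin-1 (Fbn1) fell by 1.39 (limma adjusted p = 0.0191), N-cadherin (Cdh2) by 1.12 (limma adjusted p = 0.0193), Itgav by 1.01 (limma adjusted p = 0.00248) and Gpc3 by 0.98 (limma adjusted p = 0.0106). At P60, 0 tested genes of these 5 lists passed.

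The P28 counts of these lists were also taken without the library labelled P28 control 3, an alternative chosen after seeing the data, in which 40.9% of 14151 genes passed in limma (21.8% higher, 19.1% lower). The proteases then had 4 higher and 8 lower, the other growth factors and hormones 4 higher and 3 lower and the receptors 2 higher and 4 lower, while the counts of the TGF-beta family ligands and of the adhesion and matrix precursors did not change. All the substrate genes named here at P28 kept their direction and call, among them Bmp6 at -2.03 (limma adjusted p = 0.00770), Igf2 at 4.39 (limma adjusted p = 0.000188) and Corin at -2.97 (limma adjusted p = 8.36e-05) on the log2 scale.

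DP markers moved with genotype in the same anagen libraries. Of 14 DP markers, 1 was higher and 7 lower in dM1/2 at P24, beside 14.8% higher and 11.8% lower of all genes tested. At P28, 3 were higher and 4 lower, beside 20% and 15.6% of all genes. Without the library labelled P28 control 3, 4 were higher and 4 lower, beside 21.8% and 19.1% of all genes. Their summed level was 177533 to 221214 in P24 dM1/2, below the P24 controls, and 142050 to 159538 in P28 dM1/2 against 155676 to 454355 in P28 controls. At P60, 0 of the 14 passed, and the sums overlapped, at 18997 to 38777 in dM1/2 and 29302 to 39487 in controls. The median log2 fold changes of the 14 were -0.60 at P24, -0.65 at P28 and -0.78 at P60. Over all genes the medians were -0.01, 0.00 and 0.02. Keratinocyte marker sums were 131 to 868 over all libraries, melanocyte sums 26.7 to 206, immune sums 43.3 to 842 and Schwann cell sums 34.5 to 757. Endothelial sums were larger, at 366 to 6059 over all libraries, as were muscle sums, at 342 to 5225. The 3 adipocyte markers summed to 127 to 382 in P28 controls and 11.1 to 19.3 in P28 dM1/2, with no overlap. The part of these shifts in the convertase differences was not tested.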

How the data were processed

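DP cells were profiled by single-end, ribosome-depleted RNA sequencing. The authors trimmed reads (Trimmomatic), aligned them to mm10 (Tophat 2), counted them per Ensembl gene (HTSeq) and deposited a signal, counts divided by DESeq2 size factors, all 24 libraries normalized together. Fold changes and p-values of the authors in the same files were not used. Every value was a whole number of reads within 0.1 after the size factor was undone. Genes averaging 10 or more normalized reads over a comparison were fitted with limma 3.58.1 (R 4.3.3, trend, two-sided) on log2(normalized reads + 1), per comparison, with Benjamini-Hochberg adjustment over all genes and a threshold of 0.05. As a check of the code, the fits were run on simulated counts with a fixed dispersion. The simulation did not model the spread between these replicates. Fold changes on this scale understate those of low genes. Members and lists were chosen with earlier results of these data known. Members, listed relatives, up to 4 listed substrates with the largest P28 change plus Corin, the 5 genes most like Pcsk6 and the next 3 falls at P20 were to be named, of which 1 is not reported here. Exon lengths came from GENCODE M21 (25431 gene IDs matched). Among the comparisons tested, same-numbered libraries correlated above 0.1 in all 3 pairs only for P60 against P28 controls (0.128, 0.119 and 0.165), and there the replicate block is reported. Alternatives were edgeR 4.0.16 and DESeq2 1.42.0 on the recovered reads, TMM scaling, a pseudocount of 10, no filter, a single fit, the block, a threshold of 0.01 and leaving out each library. Listed genes at P28 were refitted without P28 control 3, chosen after seeing the data.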

Additional observations from a re-analysis of the deposited data

Results flagged for a closer look

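The genotype effect differed between ages, by a test of the difference itself, for 4 results. The effect on Pcsk5 was lower at P28 than at P24 by a log2 difference of -1.18 (SE 0.23, limma adjusted p = 0.0499) and lower at P28 than at P60 by -2.03 (SE 0.46, limma adjusted p = 0.0134). The first of these calls was lost in 11 of 12 fits that left out 1 library, and with no filter, in the single fit and with the replicate block. The effect on Pcsk2 was higher at P28 than at P24 by 3.90 (SE 0.59, limma adjusted p = 0.0298), with the direction itself opposite at the 2 ages. That call was lost in 7 of 12 fits that left out 1 library. With the replicate block 0 genes passed between P28 and P24 (limma adjusted p of 0.115 for Pcsk5 and 0.0920 for Pcsk2). The effect on Furin was lower at P28 than at P60 by -1.52 (SE 0.29, limma adjusted p = 0.00664). Hdac1 itself overlapped between genotypes at P28 and at P60.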

How the results depend on the processing

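Of 620 member values recomputed under an alternative, 525 kept their direction and side of the threshold, 45 lost the call, 9 gained it and 41 changed sign, and all 41 sign changes were of effects that had not passed. The P28 differences of Furin, Pcsk5 and Pcsk2 kept direction and call under all 14 alternatives run. Precision was limited by 3 libraries per group, by the spread of Pcsk6 between controls and by telogen depth; the block changed no call other than those given here and in the report.

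At a threshold of 0.01 the genes called were 1565 at P24, 2638 at P28, 3 for P28 against P24 in controls, 67 in dM1/2, 489 for P60 against P28, and 4 and 835 for the differences of effects between P28 and P24 and between P28 and P60. The members called were then 1 at P24, 0 for P28 against P24 in controls, 1 for P60 against P28, and 0 and 1 for the differences.

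The replicate block gave 2366 genes at P24, 6 at P60, 27 for P28 against P24 in controls and 0 for the difference between P28 and P24, with 0 members called in each of the last 2 (limma adjusted p of 0.0749 for Pcsk5 and 0.0507 for Pcsk2 in controls). These libraries share only a number, with correlations of 0.314, -0.075 and 0.318 for the controls at P28 and P24, -0.179, 0.043 and -0.401 for the genotypes at P24, -0.152, 0.027 and -0.229 at P28, 0.344, 0.024 and 0.171 at P60 and 0.090, -0.192 and 0.305 for dM1/2 at P28 and P24, and in none of these tested comparisons was every library most like its own number. At P20 limma served only to rank the falls, and no test of a member is reported. The correlations there were 0.231, 0.082 and 0.116 and every library was most like its own number.

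The single fit over 24 libraries gave 1313 genes for P28 against P24 in controls, 78 in dM1/2, 4893 for P60 against P28 and 19 at P60, with 1 member at P24 and 1 for the difference between P28 and P24. DESeq2 gave 1494, 1127, 595 (difference between P28 and P24) and 26 (P60) genes. A pseudocount of 10 gave 1 gene at P60 and 151 for the difference between P28 and P24, and with no filter 1 member passed that difference. The cause of these changes was not tested.

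Leaving out 1 library gave 2057 to 4012 genes at P24, 3043 to 5788 at P28, 0 to 2 at P60, 0 to 67 for P28 against P24 in controls, 57 to 446 in dM1/2, 552 to 4224 for P60 against P28, 8 to 167 for the difference between P28 and P24 and 1393 to 2941 for that between P28 and P60. Members called ran from 1 to 3 at P24, 0 to 1 for P28 against P24 in controls, 1 to 2 for P60 against P28 and 0 to 2 for the difference between P28 and P24.

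Sign changes when 1 library was left out were as follows on the log2 scale. Pcsk6 ran from -1.02 to 0.11 at P24, -1.16 to 0.55 at P28, -0.078 to 0.48 at P60, -0.94 to 0.77 for P28 against P24 in controls, -0.23 to 0.45 in dM1/2, and -0.66 to 1.05 and -1.40 to 0.31 for the differences. Pcsk7 ran from -0.022 to 0.15, -0.031 to 0.13 and -0.10 to 0.17 at P24, P28 and P60, and -0.094 to 0.083 and -0.11 to 0.15 for the differences. At P60 Pcsk5 ran from -0.053 to 0.76 and Furin from -0.014 to 0.20, and Pcsk2 ran from -0.32 to 0.27 for P28 against P24 in dM1/2. The difference between P28 and P24 was -0.40 with edgeR and -0.38 with DESeq2 for Pcsk6, and -0.031 with edgeR, -0.020 with DESeq2 and -0.030 on log2-CPM with TMM for Pcsk7. That between P28 and P60 was -0.00048 for Pcsk7 with DESeq2. Serpinb8, not called at P28, was at -0.51 without P28 control 3.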
